A study of Homo sapiens with 6 samples.

Results

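Hodgkin lymphoma cells are known for making cytokines, and 10 of their genes were followed here: TNF, LTA, LTB, IL5, IL6, IL9, IL10, IL13, IL21 and EBI3. The members were all probe sets that the array annotation assigns to 1 of these symbols and to no other gene. This gave 14 probe sets for 9 genes, among 18244 genes and 49393 probe sets in all. No expression value was analysed for IL9, and only its promoter was examined. Total RNA came from L428, an established cell line of human Hodgkin lymphoma, grown in RPMI1640 medium with 10% FCS. The cells were nucleofected, a form of electroporation, with 3 µg of an siRNA against BATF3 or 3 µg of a negative control siRNA, and were cultured for 48 hours. There were 3 Affymetrix PrimeView arrays with BATF3 siRNA (called BATF3 arrays) and 3 with control siRNA (control arrays). Both groups were nucleofected, no untreated cells were included, and a single BATF3 siRNA product was used in 1 cell line. The labels do not say that replicates were separate cultures, so p-values measure only the spread between these arrays.

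Cytokines are secreted or membrane-held proteins by which immune cells signal to each other. In Hodgkin lymphoma the malignant cells are few and lie among many reactive T cells, eosinophils, macrophages and fibroblasts, and cytokines and chemokines of the malignant cells are known to attract and shape these neighbours. NF-kappaB and AP-1 factors, both highly active in these cells, are known activators of many cytokine genes, and BATF3 is a basic leucine zipper protein that binds AP-1 sites together with JUN proteins. The comparison asked which of these transcripts L428 cells hold and which differ when BATF3 is lowered.

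BATF3, the targeted gene, read 10.87, 10.76 and 10.69 in the BATF3 arrays, against 11.89, 12.08 and 11.94 in the control arrays (log2 value). Its mRNA fell by 1.20 on the log2 scale (SE 0.095; limma adjusted p = 0.00673), a ratio of 0.436. Of all genes tested, 3 of 18244 (0.0164%) passed an adjusted p of 0.05. Of 8 Hodgkin line markers 6 lay above background in all arrays, among them TNFRSF8 (CD30), the chemokine gene CCL17 and IRF4. The chemokine gene CCL22 lay under it in every array, and CD274 lay above it in 2 of 6 arrays. Of 5 B cell markers measured, PAX5 and CD79B lay above background while MS4A1, CD79A and BLK lay under it; loss of many B cell genes is well known in this disease. All 8 T and NK cell, 6 myeloid and 3 fibroblast markers lay under background in every array. Background here is the highest of the 23 background probe sets of an array, which hold probes with 3 to 25 G and C bases and read 1.64 to 7.32. The highest read 6.68 to 7.32 over the 6 arrays. This is a strict limit, since the base content of the cytokine probes was not examined, and a transcript under it may still be present. Those background probe sets with 20 or more G and C bases read 6.49, 5.92 and 5.98 in BATF3 replicates 1, 2 and 3, against 6.49, 6.48 and 6.46 in the control arrays.

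Transcripts of 4 cytokines, TNF, LTA, IL6 and EBI3, lay above background in all 6 arrays. IL13 lay above it in 3 of 6 arrays, and LTB, IL5, IL10 and IL21 lay under it in every array. The 4 of 9 genes above background (44.4%) compare with 42.8% of all genes. With limma, 0 of the 9 genes passed the test and 0 of the 14 probe sets (0.0101% of all probe sets passed). At an unadjusted p under 0.05 there were 2 higher genes (TNF and IL10; 3.73% of all genes) and 1 lower gene (IL5; 3.42% of all genes). The same 3 genes were those whose 3 BATF3 arrays and 3 control arrays did not overlap, where 12.1% of all genes did not overlap. The median log2 change of the 9 genes was 0.036, against -0.0027 for all genes, and 5 were positive and 4 negative (49% of all genes were positive). In bulk RNA, fewer cells making a transcript and less of it per cell cannot be told apart.

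**Figure D1:**
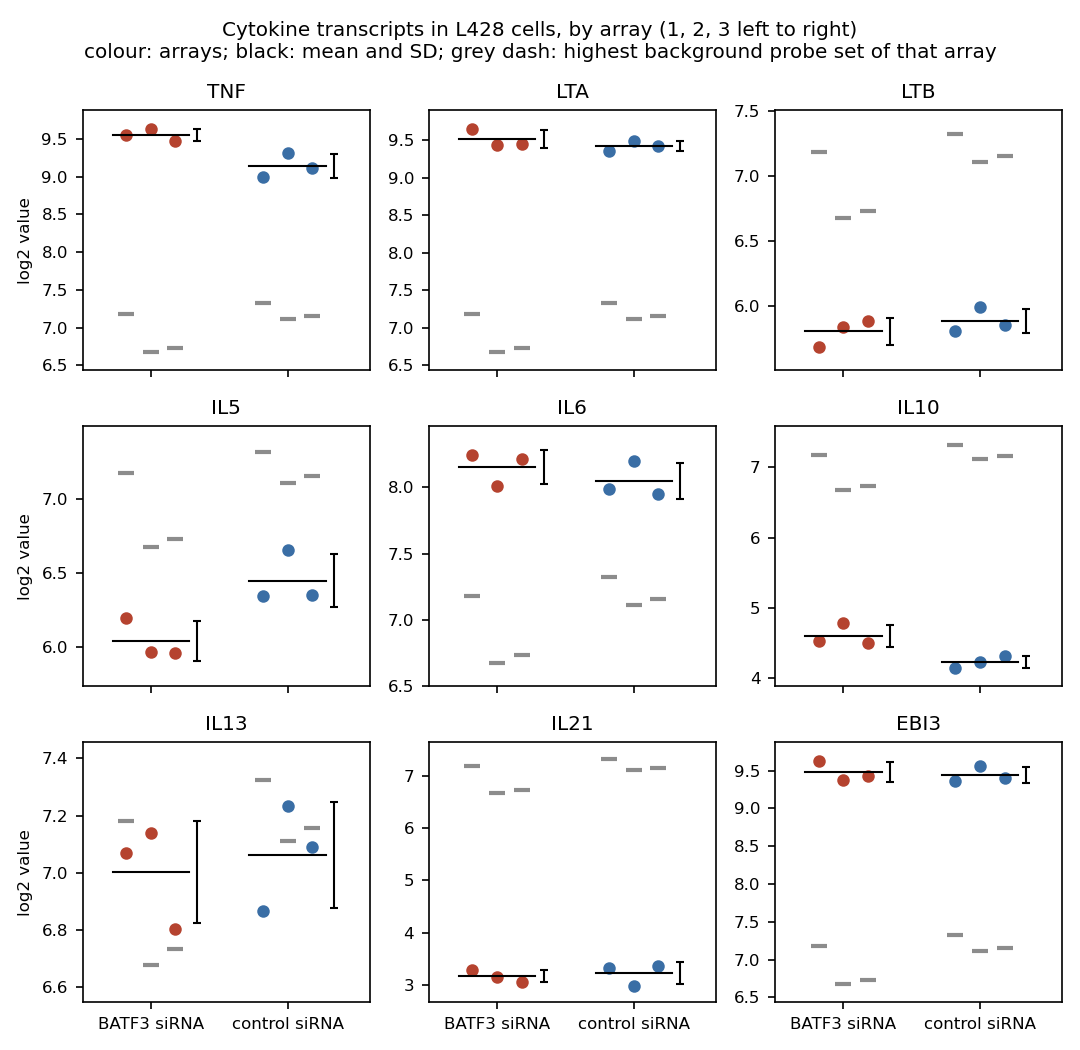
Log2 value of 9 cytokine genes (1 panel each, vertical scales differ) in 3 BATF3 siRNA arrays (red) and 3 control siRNA arrays (blue), replicates 1, 2 and 3 from left to right, with mean and SD in black and the highest background probe set of each array as a grey dash. TNF, LTA, IL6 and EBI3 lay above the dashes in every array, and the groups stood apart for TNF, IL10 and IL5.

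The bases just before the start of the 4 genes above background are shown because BATF3 and NF-kappaB act through sites of the kind marked. They come from RefSeq (GRCh38.p14), 250 bases each, 5′ to 3′ on the strand of the gene, with the last base just before the annotated start. Capitals mark matches on either strand to AP-1 (TGANTCA), to the cyclic AMP element (TGACGTCA) or to a loose NF-kappaB motif (GGGNNNNNCC), and matches may overlap. The TNF stretch lies at chr6:31575315-31575564 (plus strand), that of LTA, for the downstream of its 2 annotated starts, at chr6:31572039-31572288 (plus strand), that of IL6 at chr7:22726950-22727199 (plus strand) and that of EBI3 at chr19:4229273-4229522 (plus strand).
TNF: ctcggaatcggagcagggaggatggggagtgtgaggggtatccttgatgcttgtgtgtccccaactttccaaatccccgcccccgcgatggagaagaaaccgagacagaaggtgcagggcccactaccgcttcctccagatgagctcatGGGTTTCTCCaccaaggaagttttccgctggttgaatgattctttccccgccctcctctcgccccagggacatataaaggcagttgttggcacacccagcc
LTA: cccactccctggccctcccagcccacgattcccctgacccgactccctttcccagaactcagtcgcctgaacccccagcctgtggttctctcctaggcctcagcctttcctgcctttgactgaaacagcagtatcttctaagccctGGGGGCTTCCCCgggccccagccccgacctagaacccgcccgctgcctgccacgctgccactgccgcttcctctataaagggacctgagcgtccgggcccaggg
IL6: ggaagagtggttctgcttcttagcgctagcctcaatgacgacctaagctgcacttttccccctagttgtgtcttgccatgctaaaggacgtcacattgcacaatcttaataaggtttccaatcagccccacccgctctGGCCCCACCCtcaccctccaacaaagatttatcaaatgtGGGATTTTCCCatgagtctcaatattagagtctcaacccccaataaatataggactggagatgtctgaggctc
EBI3: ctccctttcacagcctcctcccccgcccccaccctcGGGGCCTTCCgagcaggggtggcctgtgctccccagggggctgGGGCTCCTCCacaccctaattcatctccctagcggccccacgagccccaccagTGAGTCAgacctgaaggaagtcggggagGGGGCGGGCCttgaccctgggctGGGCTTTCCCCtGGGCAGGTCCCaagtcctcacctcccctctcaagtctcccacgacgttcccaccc

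Of these 4 stretches that of EBI3 held an AP-1 match, 112 to 118 bases before the start. The TNF stretch held 1 NF-kappaB match, 92 to 101 bases before the start. The stretches of LTA, IL6 and EBI3 held overlapping NF-kappaB matches, the nearest to the start ending 93, 63 and 45 bases before it. Promoters were found for 9 of the 10 genes, with 14 annotated starts. Among them an AP-1 match stood before 3 starts, 1 each of IL9, IL10 and EBI3. Over all 35093 promoter windows of the same length the AP-1 letters occurred in 6.57%, the cyclic AMP element in 1.65% and the loose NF-kappaB motif in 54.4%. The loose NF-kappaB motif stood in 10 of the 14 windows, those of 8 of the 9 genes. The LTB windows cover nearly the same stretch and hold the same matches, and the LTA windows overlap in part. The 54.4% is a share of windows, and no share per gene was computed. The cyclic AMP element occurred in 0 of the 14 windows. These matches describe the letters in these windows and say nothing of binding.

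TNF, the inflammatory cytokine that signals through the TNF receptors to NF-kappaB and to cell death pathways, read 9.55, 9.63 and 9.48 in the BATF3 arrays, against 9.00, 9.31 and 9.11 in the control arrays. All 3 BATF3 arrays lay above all 3 control arrays, and the TNF signal stood 1.68 or more log2 units over the highest background probe set of its array. The means were 9.55 ± 0.078 with BATF3 siRNA and 9.14 ± 0.16 with control siRNA (log2, SD, n = 3 each). The log2 change was 0.41 (SE 0.10), a ratio of 1.33 with a 95% confidence interval of 1.13 to 1.57. TNF was 1 of 239 genes (1.31%) with an absolute change at least this large. It did not pass over all genes (limma adjusted p = 0.446). Permuting the arrays exactly, two-sided, gave p = 0.1, and 3 arrays against 3 can reach no smaller p. BATF3 replicate 1, which had the GC-rich background of the control arrays, differed from the control mean by 0.41, and BATF3 replicates 2 and 3 together also by 0.41.

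LTA, or lymphotoxin alpha, is the neighbour of TNF on chromosome 6 and forms either a soluble trimer that binds TNF receptors or, with LTB, a membrane trimer that binds the lymphotoxin beta receptor. Its brighter probe set read 9.65, 9.44 and 9.45 in the BATF3 arrays, against 9.36, 9.49 and 9.43 in the control arrays. The groups overlapped, with BATF3 replicate 1 highest. The log2 change was 0.085 (SE 0.096; limma adjusted p = 0.906), a ratio of 1.06 with an interval of 0.914 to 1.23. The second LTA probe set read 7.88, 7.42 and 7.56 in the BATF3 arrays, against 7.87, 7.73 and 7.70 in the control arrays. Its change was -0.15 (SE 0.13), of opposite sign to the first, and its name ends in x_at, the mark for probes that may also match other transcripts.

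LTB, which anchors LTA in the membrane, lay under background with both of its probe sets. The first read 5.69, 5.84 and 5.89 in the BATF3 arrays, against 5.81, 5.99 and 5.86 in the control arrays. The groups overlapped, and the log2 change was -0.079 (SE 0.097; limma adjusted p = 0.915). The second gave -0.16 (SE 0.15). TNF lies between LTA and LTB in the genome with no other protein-coding gene among them, and the changes of the 3 neighbours were 0.41, 0.085 and -0.079 in the order TNF, LTA and LTB; the differences between these changes were not tested.

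EBI3 is the subunit that pairs with IL27 (p28) to form IL-27 and with IL12A (p35) to form IL-35. It read 9.63, 9.37 and 9.43 in the BATF3 arrays, against 9.37, 9.56 and 9.40 in the control arrays. The groups overlapped. EBI3 was at 0.036 on the log2 scale (SE 0.10; limma adjusted p = 0.963), or 1.03 times the control level (interval 0.874 to 1.20). Of 6 genes listed as partners of EBI3 and their relatives 4 were measured and 0 passed. IL12A read 6.55 ± 0.17 with BATF3 siRNA and 6.33 ± 0.18 with control siRNA (SD, n = 3 each; change 0.22, SE 0.12). Background was exceeded by IL12A in 1 of 6 arrays only. IL27 lay under background in every array, at means of 3.88 with BATF3 siRNA and 3.92 with control siRNA. IL23A, the subunit of IL-23, was also under background (change 0.27, SE 0.12), with the 3 BATF3 arrays above the 3 control arrays.

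IL6, a B cell and plasma cell growth factor that signals through STAT3, read 8.24, 8.01 and 8.21 in the BATF3 arrays, against 7.99, 8.20 and 7.95 in the control arrays. Control replicate 2 lay among the BATF3 arrays and BATF3 replicate 2 among the control arrays. This gave a change of 0.11 (SE 0.11; limma adjusted p = 0.884), a ratio of 1.08 with an interval of 0.912 to 1.27. The second IL6 probe set was under background, at 4.50, 5.22 and 5.06 in the BATF3 arrays, against 4.65, 5.16 and 4.83 in the control arrays, with a change of 0.045 (SE 0.19). Both probe sets thus gave intervals that held 0.

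**Figure D2:**
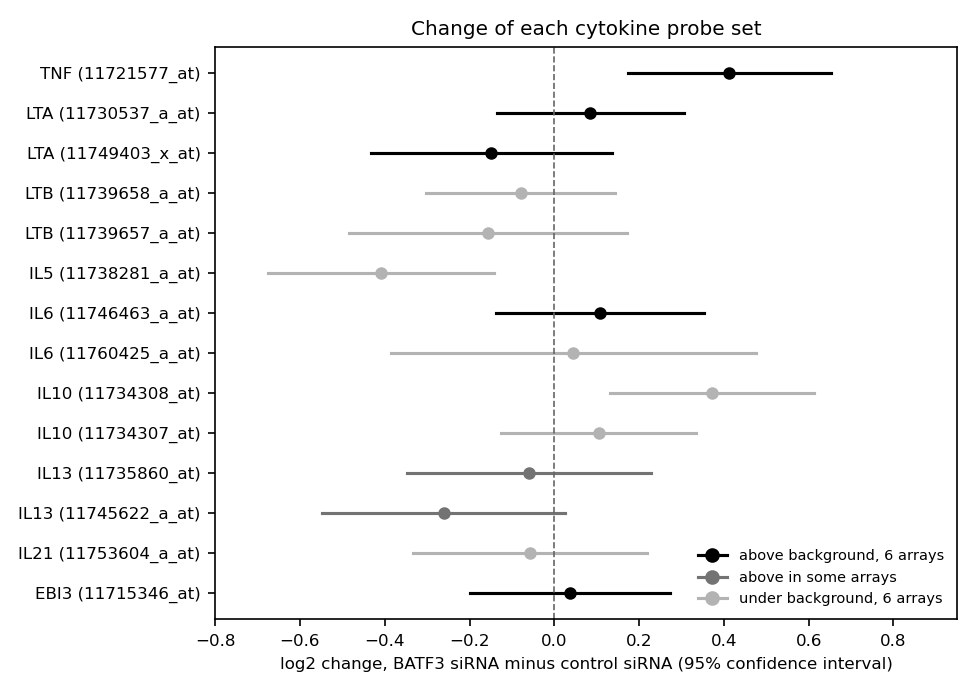
Log2 change (BATF3 siRNA minus control siRNA) of the 14 cytokine probe sets with 95% confidence intervals from the fit over all 49393 probe sets, shaded by their place relative to background. The intervals of TNF, IL5 and 1 of the IL10 probe sets lie to one side of 0, and none passed after adjustment.

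IL10, a cytokine that restrains T cell and macrophage responses, lay under background with both probe sets. The brighter read 4.54, 4.78 and 4.50 in the BATF3 arrays, against 4.15, 4.23 and 4.32 in the control arrays, so that the groups did not overlap. The means were 4.61 ± 0.16 with BATF3 siRNA and 4.23 ± 0.088 with control siRNA (SD, n = 3 each). The log2 change was 0.37 (SE 0.10; limma adjusted p = 0.493), with a two-sided exact permutation p of 0.1. The second read 2.94, 2.81 and 2.66 in the BATF3 arrays, against 2.74, 2.63 and 2.73 in the control arrays, and the groups overlapped (change 0.10, SE 0.10). At these levels the size of a fold is uncertain.

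IL5, the growth and survival factor of eosinophils, gave the lowest change of the 9 genes. It read 6.20, 5.97 and 5.96 in the BATF3 arrays, against 6.34, 6.66 and 6.35 in the control arrays. All 3 BATF3 arrays lay below all 3 control arrays, and every value was under background, by 0.46 log2 units or more. The log2 change was -0.41 (SE 0.12), a ratio of 0.753 with an interval of 0.628 to 0.904 (limma adjusted p = 0.503; two-sided exact permutation p = 0.1). BATF3 replicates 2 and 3, which had the lower GC-rich background, also had the lowest IL5 values. BATF3 replicate 1 alone differed from the control mean by -0.25, and BATF3 replicates 2 and 3 together by -0.49. The part of the array background in the IL5 difference was not tested.

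**Figure D3:**
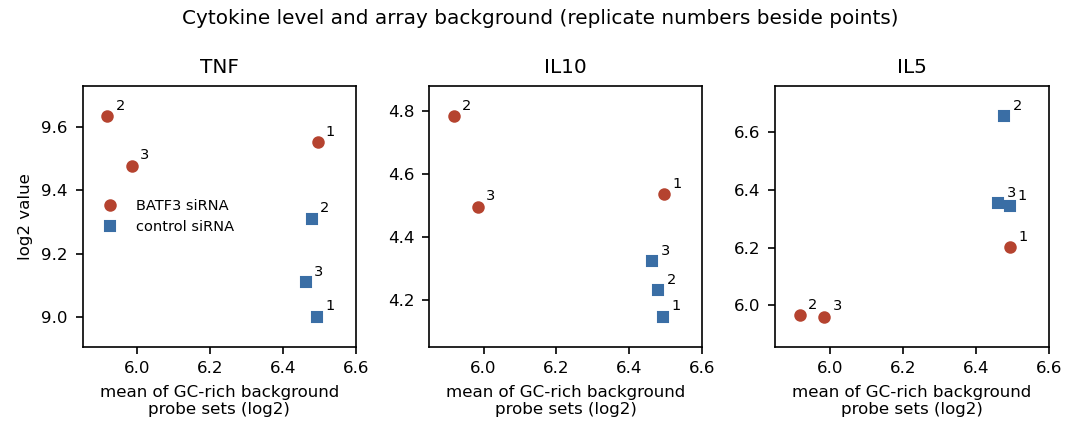
Log2 value of TNF, IL10 and IL5 (vertical) against the mean of the background probe sets with 20 or more G and C bases in the same array (horizontal, log2), for BATF3 siRNA (circles) and control siRNA (squares), numbered by replicate. BATF3 replicates 2 and 3 had the lowest background, and for IL5 also the lowest level, while TNF in BATF3 replicate 1 lay above all controls at the same background.

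IL13, a cytokine of type 2 responses that signals through STAT6 and is known as a growth factor of Hodgkin cells, read 7.07, 7.14 and 6.80 in the BATF3 arrays, against 6.87, 7.23 and 7.09 in the control arrays. It lay above background in BATF3 replicates 2 and 3, where that background was low, and in control replicate 2. The log2 change was -0.060 (SE 0.13; limma adjusted p = 0.954), a ratio of 0.959 with an interval of 0.788 to 1.17. The second IL13 probe set read 6.95, 6.92 and 6.67 in the BATF3 arrays, against 6.92, 7.32 and 7.08 in the control arrays. The groups overlapped there too, by a narrow margin, and the change was -0.26 (SE 0.13; limma adjusted p = 0.732 over all probe sets). IL5 and IL13 lie in 1 cluster on chromosome 5 with RAD50 between them, a DNA repair gene that averaged 10.25 with BATF3 siRNA and 10.27 with control siRNA (change -0.022).

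IL21, a cytokine made chiefly by helper T cells that drives B cells toward plasma cells, read 3.29, 3.15 and 3.06 in the BATF3 arrays, against 3.33, 2.99 and 3.36 in the control arrays. Every array read it 3.53 log2 units or more under background. The groups overlapped, with a change of -0.057 (SE 0.12; limma adjusted p = 0.954).

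**Figure D4:**
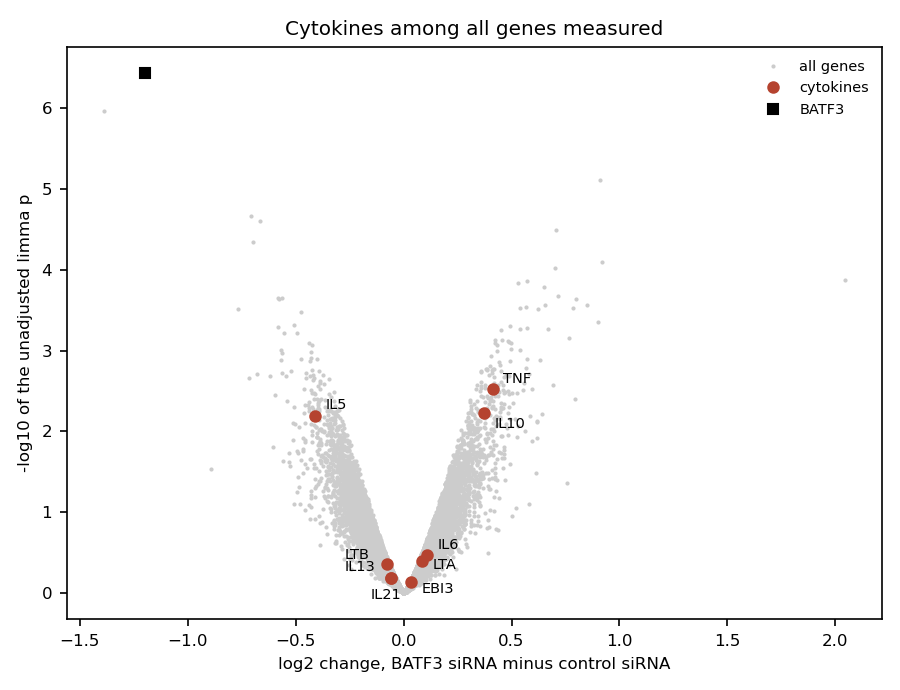
Unadjusted limma p (vertical, -log10) against log2 change (horizontal, BATF3 siRNA minus control siRNA) for 18244 genes in grey, 9 cytokines in red and BATF3 as a black square. TNF, IL10 and IL5 lie on the arms of the distribution and the other 6 cytokines near its base.

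The receptor chains of these cytokines, listed together with the related chain IL12RB1, were measured for 19 of 19 genes. Of these 9 lay above background, among them IL5RA, IL2RG, IL21R, IL13RA1, IL10RA and IL6ST. The other 10 lay under it in every array, among them TNFRSF1A, TNFRSF1B, LTBR, IL6R and CSF2RB. Of the 19 genes none passed the test, and 16 had a negative change (median -0.11, with 14 of 19 negative after median centring). In 4 genes all 3 BATF3 arrays lay below all 3 control arrays, where 5.78% of all genes did. The smallest p belonged to IL12RB1, a receptor chain shared by IL-12 and IL-23, at 6.20, 5.79 and 6.04 with BATF3 siRNA, against 6.33, 6.33 and 6.33 with control siRNA. Its change was -0.32 (SE 0.11; limma adjusted p = 0.609), and that of IL12RB2 was -0.28 (SE 0.11; limma adjusted p = 0.668). Both lay under background in every array. Of those above background, IL5RA, the chain specific for IL-5, read 10.77, 10.66 and 10.85 with BATF3 siRNA, against 10.96, 10.93 and 10.86 with control siRNA (change -0.16, SE 0.090; chosen after its values were seen).

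Genes that TNF and lymphotoxin induce through NF-kappaB were measured for 12 of 13 and 0 passed. Their median log2 change was 0.11, with 8 positive and 4 negative, and 9 positive after median centring, quantile normalization or cyclic loess. In 5 of the 12 all BATF3 arrays lay above all control arrays (6.36% of all genes), and in 0 below. IER3, a survival gene of the early response, read 11.53, 11.20 and 11.45 with BATF3 siRNA, against 11.01, 10.79 and 10.96 with control siRNA (change 0.47, SE 0.11; limma adjusted p = 0.418). BCL2A1, an inhibitor of apoptosis, read 11.43, 11.34 and 11.37 with BATF3 siRNA, against 10.91, 11.19 and 10.85 with control siRNA (change 0.40, SE 0.11; limma adjusted p = 0.485). Earlier results of these arrays for NF-kappaB target genes were known when this list was written. The list is therefore no independent support for a shift of such genes.

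Factors that act on the stability of cytokine mRNAs, in either direction, were measured for 9 of 9 genes, and 0 passed. Their median log2 change was 0.0046, which turned to -0.015 under cyclic loess and -0.017 under quantile normalization. ZFP36L1 read 9.31, 9.42 and 9.40 with BATF3 siRNA, against 9.15, 8.88 and 8.85 with control siRNA (change 0.41, SE 0.10; limma adjusted p = 0.446). ZFP36, or tristetraprolin, which is known to bind TNF mRNA, read 7.66, 7.71 and 8.14 with BATF3 siRNA, against 7.70, 7.25 and 7.51 with control siRNA (change 0.35, SE 0.15). ZFP36L2, of the same family and chosen after its values were seen, was at -0.18 (SE 0.085). The groups stood apart for ZFP36L1 and, in the other direction, for ZFP36L2, and overlapped for ZFP36. Proteases and regulators that shed or further process TNF family ligands were measured for 6 of 6 genes and 0 passed (median 0.12). ADAM10 was at -0.17 (SE 0.097) and SPPL2A at 0.12 (SE 0.085).

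Among 25 transcription factors known to act on cytokine genes, BATF3 alone passed. The median change of the list was -0.029, with 11 positive and 14 negative. Values of further members, chosen after they were seen, went both ways. EGR1, a zinc finger factor of the early response, was at 2.05 (SE 0.33; limma adjusted p = 0.221) and STAT5B, a factor activated by cytokine receptors, at -0.38 (SE 0.10; limma adjusted p = 0.475). The AP-1 members JUN and JUNB were both at 0.31 (limma adjusted p = 0.620 and 0.648). FOS, FOSB, FOSL1, FOSL2, JUND, BATF and BATF2 lay between -0.088 and 0.11 with overlapping groups. Of these BATF lay above background in all 6 arrays and JUND in 2. FOS, FOSB, FOSL1, FOSL2 and BATF2 lay under it in every array, which limits the reading of their changes. Genes that IL-13, IL-6, IL-10 or IL-21 induce through STAT factors were measured for 12 of 12 and 0 passed (median 0.055, 9 positive). BCL6, a repressor of transcription that acts in germinal centre B cells, was at 0.35 (SE 0.14, limma adjusted p = 0.663). The kinase gene PIM1 was at 0.22 (SE 0.092, limma adjusted p = 0.689).

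Other cytokines were measured for 38 of 41 genes, and 29 of these lay under background in every array. None passed, the median change was -0.013 (0.0089 after median centring, 0.0055 under cyclic loess, 0.0056 under quantile normalization), and 17 were positive and 21 negative. IL31, a cytokine known for itch, read 6.46, 5.98 and 6.49 with BATF3 siRNA, against 5.77, 5.39 and 5.47 with control siRNA. Its change of 0.77 (SE 0.15; limma adjusted p = 0.337) was measured under background. TNFSF9, the ligand of the costimulatory receptor 4-1BB, lay above background and read 8.31, 8.37 and 8.45 with BATF3 siRNA, against 8.13, 7.95 and 8.11 with control siRNA (change 0.31, SE 0.092; limma adjusted p = 0.518). Neighbours of the TNF cluster and of the IL5 to IL13 cluster were measured for 9 of 10 genes and 0 passed (median -0.022, with 3 positive and 6 negative). IRF1 was at 0.15 (SE 0.088) and LST1 at -0.15 (SE 0.094).

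**Figure D5:**
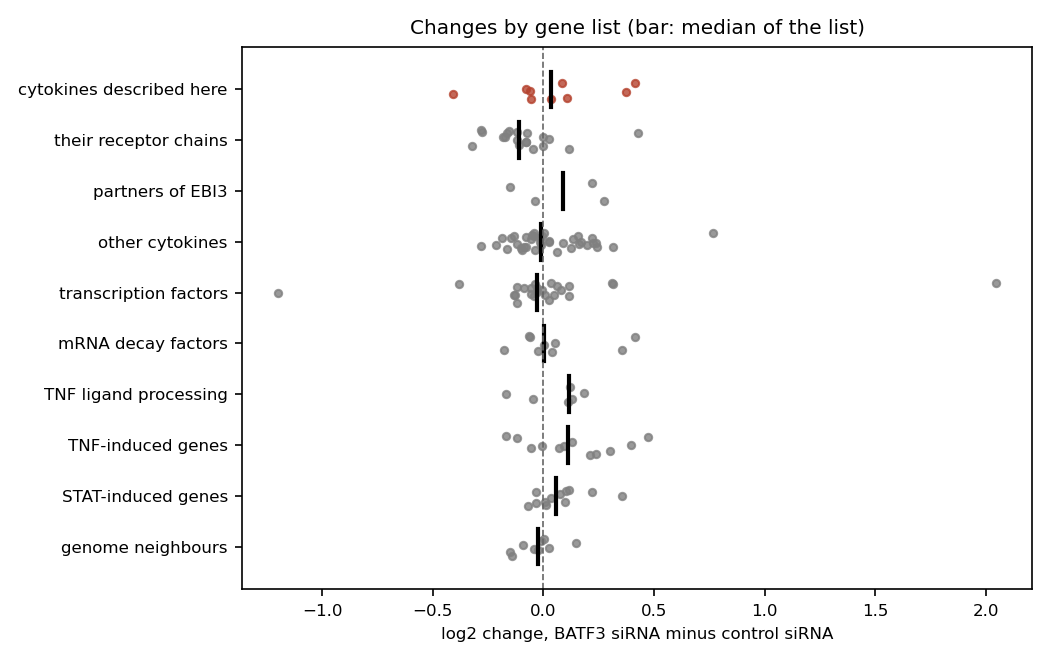
Log2 change (BATF3 siRNA minus control siRNA) of each gene in 10 lists, 1 point per gene with vertical scatter for legibility, the cytokines described here in red and the median of each list as a bar. List medians lay between -0.11 and 0.12, with BATF3 at -1.20 and EGR1 at 2.05 as the far points.

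T and NK cells and myeloid cells also make several of these cytokines. Of the T and NK markers those with the smallest p went opposite ways, NKG7, a granule gene, at a log2 change of 0.40 (SE 0.13; limma adjusted p = 0.589) and CD8A, a T cell coreceptor, at -0.25 (SE 0.12; limma adjusted p = 0.730). Of the myeloid markers CD163, a scavenger receptor of macrophages, was at 0.43 (SE 0.12; limma adjusted p = 0.503) and CD14 at 0.20 (SE 0.13). Of the fibroblast markers COL1A2, a collagen gene, was at -0.29 (SE 0.088; limma adjusted p = 0.529) and PDGFRB at 0.033 (SE 0.095). The 8 T and NK markers, summed as linear values per array and expressed as log2, gave 7.60 to 7.69 with BATF3 siRNA and 7.40 to 7.61 with control siRNA. The 6 myeloid markers gave 6.85 to 6.94 with BATF3 siRNA and 6.52 to 6.95 with control siRNA. The RNA came from the cell line L428, and every marker of these lists lay under background in all 6 arrays. The part of such cells in the cytokine differences was not tested.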

How the data were processed

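The authors deposited 1 value per probe set and array, used here as log2 values; the base was inferred from their range. Per the submitters' processing notes the affy package was used. The steps of background correction and normalization were not given in the sources used here. Median values per array were 6.24 to 6.33. Differences (BATF3 siRNA minus control siRNA) went through lmFit and eBayes of limma 3.58.1 (R 4.3.3, two-sided) over 18244 genes, each represented by its brightest single-gene probe set, and over 49393 probe sets. Benjamini-Hochberg adjustment covered each whole table, with calls under 0.05. The number of arrays limits the precision (median SE 0.11). The script was tested on simulated data.

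Members and gene lists were chosen with earlier results of these data known. All members were named, and from each list of related genes up to 4 called genes or the 2 with the smallest p. Hodgkin line and B cell markers were instead named by their place relative to background. Other genes named fall outside this rule and were chosen with their values known, also where this is not said beside them. Alternatives covered normalization, dim genes, probe set choice, variance model, array weights, replicate block, threshold and each array left out. A block for array background was chosen after seeing the data.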

Additional observations from a re-analysis of the deposited data

How the results depend on the processing

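Under all 17 alternatives 0 member genes were called, and likewise 0 member probe sets where these were tested. For some fits the probe set count is empty, since limma called 0 of all 49393 probe sets, those of BATF3 included. Such were the fits that dropped array 1 of the BATF3 group, or array 1 or array 3 of the control group. Probe set counts in the settings named next are equally uninformative. Without BATF3 siRNA replicate 3, without control siRNA replicate 2 and with the array background block limma called 0 of 18244 genes, BATF3 included (852, 1446 and 1011 at an unadjusted p under 0.05), so these settings say nothing of the members' stability. Over the alternative fits, up to 16 per gene, the log2 changes of TNF (0.34 to 0.50; limma adjusted p 0.0792 to 0.933), IL10 (0.24 to 0.43), IL5 (-0.49 to -0.25), IL6 (0.045 to 0.19) and LTB (-0.20 to -0.020) kept their direction. With genes under the median level left out, LTB, IL5, IL10 and IL21 were not tested. LTA turned to -0.032 with the mean of its probe sets and to -0.15 with the most variable one. Leaving out 1 array gave -0.039 to 0.096 for EBI3, -0.16 to 0.040 for IL13 and -0.18 to 0.011 for IL21. The array background block sets BATF3 siRNA replicate 1 alone against the controls. It put IL13 at 0.0041, IL21 at 0.066, IL5 at -0.25, LTA at 0.22, EBI3 at 0.19, IL6 at 0.19 and LTB at -0.20, each over 1.5 times off or turned in sign; the cause was not tested. Without BATF3 siRNA replicate 1 LTA was at 0.015, IL6 at 0.064 and LTB at -0.020. Deviations of same-numbered arrays from their group means correlated at 0.029, 0.15 and -0.025 for replicates 1, 2 and 3. BATF3 replicate 2 matched control replicate 2 best, while BATF3 replicates 1 and 3 matched control replicates 3 and 1 best. These values cannot show whether same-numbered arrays were handled together. With the replicate block 0 member genes and 0 member probe sets were called, and TNF stood at 0.41 (limma adjusted p = 0.437). Signal over background limits LTB, IL5, IL10, IL13 and IL21.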
